A study of Mus musculus with 18 samples.

Results

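The genes described here break glutathione down and return its parts to the cell in the γ-glutamyl cycle. They were 10 genes chosen by name (*Ggt1*, *Ggt5*, *Ggt6*, *Ggt7*, *Anpep*, *Dpep1*, *Ggct*, *Chac1*, *Chac2* and *Oplah*) out of 47729 in the table, and 10 of the 10 passed the filter on low counts that left 18958 genes for testing. RNA from the retinal pigment epithelium (RPE) of 9 mice labelled *rd1* was sequenced at postnatal day 40. In each mouse 1 eye had received AAV-Best1-Nrf2 together with AAV-Best1-GFP by subretinal injection (Best1-Nrf2 eyes), while the other eye got AAV-Best1-GFP without it (control eyes), so that there were 9 eyes in each group. Per the labels both groups carried the *rd1* mutation of *Pde6b*, which kills rods and then cones, and both carried the GFP vector. The study's methods give fewer *rd1* pairs at this age than the labels do, and also describe pairs of CD1, a wild-type strain, at the same age, and both kinds together make up the number of pairs used here. The labels name *rd1* for each of the 9 pairs, and whether any of them is CD1 was not settled here. The Best1 promoter, which is human, directs expression to the RPE, and the Nrf2 cDNA in the vector was human as well. Treated eyes thus carried 1 vector more than their controls. Per the study's methods their total vector dose was higher, and the Nrf2 vector had another capsid than the GFP vector. Effects of Nrf2 and of the added vector cannot be told apart here. Several preparations of the Nrf2 vector were in use. The RNA was what an eyecup released once its retina had been taken out, so that cells other than RPE could contribute. The comparison asks how the transcripts of glutathione breakdown differed when Nrf2, a transcription factor that governs antioxidant genes, was overexpressed in the RPE.

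Glutathione is a tripeptide of glutamate, cysteine and glycine and the main soluble antioxidant of the cell. Once exported, it is opened at the cell surface by γ-glutamyl transpeptidases, and the cysteinylglycine that is left is split by dipeptidases so that cysteine can be taken up again. Inside the cell, ChaC enzymes cut glutathione itself, γ-glutamyl cyclotransferase cuts γ-glutamyl amino acids, and 5-oxoprolinase turns the 5-oxoproline made by these enzymes back into glutamate. The RPE lives under high oxidative load, since it handles light, retinal lipids and the blood supply of the photoreceptors.

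The libraries held between 18956748 and 49598700 counts. The targeted gene followed the labels: *Nfe2l2*, the mouse gene for Nrf2, had a mean of 89.7 ± 17.8 CPM (SD, n = 9) in control eyes, where CPM is the count scaled to the size of the library, and of 453 ± 147 CPM (n = 9) in Best1-Nrf2 eyes. Its level was higher by 2.29 on the log2 scale (SE 0.21, adjusted p = 6.2e-05 by edgeR's quasi-likelihood test with Benjamini-Hochberg adjustment). Reads of the human cDNA and of the mouse transcript cannot be told apart in this value. The summed level of the RPE markers was 11116 to 67310 CPM, with *Ttr* the most abundant of them at means of 12874 and 18046 CPM in control and Best1-Nrf2 eyes. *Rpe65*, the visual-cycle isomerase, fell from 2021 to 297 CPM (log2 fold change -2.81, adjusted p = 0.00024) and was lower in 9 of 9 treated eyes. The eyecups also held RNA of other cells, with rod markers that summed to 47.3 to 433 CPM in control eyes and to 5.58 to 36.1 CPM in Best1-Nrf2 eyes. Of the 6 rod markers tested 1 was lower, *Sag*, which made up most of the control sum (its means were 164 CPM and, after Best1-Nrf2, 6.53 CPM). The 8 cone markers summed to between 250 and 2014 CPM in control eyes and to between 26.8 and 282 CPM in Best1-Nrf2 eyes, and 8 of 8 were lower in the test. Among markers of macrophages and microglia, 9 of 12 were higher, and their sum ran from 121 to 478 CPM in control eyes and from 174 to 721 CPM in Best1-Nrf2 eyes. Of 13 RPE markers 5 were lower and 0 higher in edgeR's test, and 5 of 13 had a positive fold change. Among the latter, *Best1* (0.97 on the log2 scale, adjusted p = 0.0555) had a higher value in 9 of 9 treated eyes and *Tyr* (0.78, adjusted p = 0.19) in 8 of 9, and 7 of the 13 were at an unadjusted p below 0.05. The part of these shifts in the results below was not tested except where a value is given, and in bulk RNA fewer cells of a type and less RNA per cell cannot be told apart.

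Of the 10 breakdown genes, 1 rose (*Ggt5*) and 0 fell in edgeR's quasi-likelihood test with mouse as a block at an adjusted p below 0.05. Among all genes tested, 3.12% were called higher and 1.13% lower, 4.25% in either direction. DESeq2 gave the same counts for the 10, and limma voom added *Chac2* as lower. A fit with photoreceptor markers as a covariate called 0 of the 10, as described below. At an unadjusted p below 0.05 there were 4 of the 10, *Ggt1*, *Ggt5* and *Ggt7* with a higher level and *Chac2* with a lower one, against 12.8% of all genes. The median log2 fold change of the 10 was 0.11, beside -0.03 over all genes tested, with 7 positive and 3 negative. A second test took each mouse by itself: an exact 2-sided sign-flip permutation test of the mean within-mouse difference in log2 CPM, left unadjusted. It gave a p below 0.05 for 3 of the 10, *Ggt1*, *Ggt5* and *Chac2*, beside 14% of all genes tested.

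**Figure D1:**
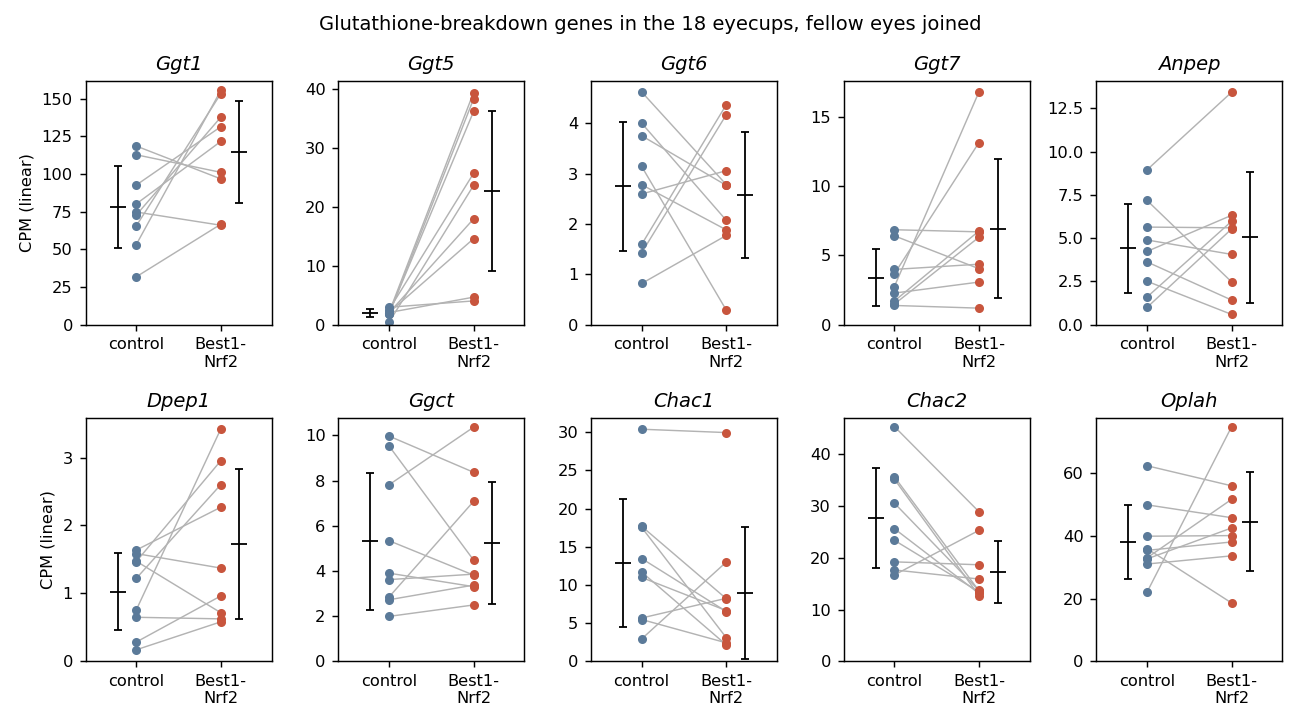
CPM (linear axis from 0, scaled for each gene) of the 10 breakdown genes in 18 eyecups. Points are eyes, grey lines join the 2 eyes of 1 mouse, and the black marks are the group mean ± SD (n = 9). *Ggt5* is the gene whose groups do not overlap, from 0.394 to 2.96 CPM in control eyes and from 4.03 to 39.3 CPM in Best1-Nrf2 eyes.

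*Ggt5* encodes a γ-glutamyl transpeptidase-like enzyme that cleaves glutathione and converts leukotriene C4 to leukotriene D4. Its gene (ENSMUSG00000006344) lies on the plus strand at chr10:75589340-75617200 of GRCm38, next to *Ggt1* at chr10:75561604-75586200. Because these neighbours are relatives, the longest stretch of identical bases that their coding sequences share is shown here, in capitals with its flanks, to show how far reads of one could be taken for the other.

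*Ggt1*: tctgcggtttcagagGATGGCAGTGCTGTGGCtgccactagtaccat
*Ggt5*: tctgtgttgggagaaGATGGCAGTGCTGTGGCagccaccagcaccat

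The shared run was 17 bases long. It lies in coding exon sequence at chr10:75584967-75584983 in *Ggt1* and at chr10:75609352-75609368 in *Ggt5*. No 31-base word of either gene's exons occurred in another gene's transcripts (0%), and neither overlapped another gene's exons.

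In the control eyes *Ggt5* ranged from 0.394 to 2.96 CPM with a median of 2.03, and in the Best1-Nrf2 eyes from 4.03 to 39.3 CPM with a median of 23.6. The groups did not overlap, which was the case for 1.17% of all genes tested. The group means were 1.96 ± 0.69 and 22.7 ± 13.6 CPM. *Ggt5* rose by a fitted log2 fold change within mice of 3.36 (SE 0.54, adjusted p = 0.00299), or 10.2-fold, and the ratio of the group means was 11.6. It was higher in the treated eye of 9 of 9 mice, where 4.34% of all genes moved in 1 direction in 9 of 9, and the exact sign-flip test gave p = 0.0039, the smallest value 9 mice allow. By size of fold change it stood at place 87 of the 592 genes called higher. Depth behind the low group was thin, at 19 to 129 counts in a control library against 121 to 1518 in a treated one.

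The rise in *Ggt5* differed widely between mice. The within-mouse log2 difference was 0.44 in mouse 6 and 1.16 in mouse 3, and between 2.80 and 5.72 in the other 7. The treated eyes of mice 3 and 6, at 4.66 and 4.03 CPM, were also the lowest 2 treated eyes for the summed glutathione synthesis genes, with 1048 and 1016 CPM where the others reached 1379 to 5392 CPM. These are levels and not differences within mice, since the control eye of mouse 3 was the lowest of its group too. It held 112 CPM where the other control eyes held 168 to 219 CPM. The treated eyes of mice 3 and 6 had the highest summed red blood cell markers of their group, 5347 and 3646 CPM against 341 to 1761 CPM in the others, and the highest summed RPE markers, 67310 and 51571 CPM against 13810 to 24522 CPM. The control eye of mouse 3 was high as well, with 2974 CPM of red blood cell markers and 64109 CPM of RPE markers, the most of its group. That of mouse 6 held 295 and 19629 CPM. By the mean log2 CPM of the RPE markers, which weighs each marker alike, the 2 treated eyes were at 9.15 and 8.72 where the other treated eyes ranged from 8.38 to 8.96. The Müller glia markers of these eyes were at 8.12 and 7.96 by mean log2 CPM, where the others ranged from 5.70 to 7.57, but summed to 8180 and 5908 CPM, where the others ranged from 4078 to 6419 CPM. Their fibroblast and sclera markers summed to 759 and 726 CPM, where the others ranged from 388 to 689 CPM. Other lists did not set both eyes apart. Melanocyte markers summed to 11194 and 1093 CPM (others 872 to 3004) and endothelial markers to 110 and 281 CPM (others 32.3 to 243). Macrophage and microglia markers summed to 506 and 273 CPM (others 174 to 721), and pericyte and smooth muscle markers to 195 and 131 CPM (others 120 to 652). The part of these transcripts in the *Ggt5* values was not tested. The treated eye of mouse 6 also held 282 CPM of cone markers, where the other treated eyes held 26.8 to 53.4 CPM. These coincidences were noted after the values were seen. Without mouse 6 the log2 fold change of *Ggt5* was 3.68, and leaving out each mouse in turn kept it between 3.06 and 3.68 with the call unchanged in 9 of 9 fits.

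Over the 9 mice, the *Ggt5* difference and the *Nfe2l2* difference, which ran from 1.13 to 3.08 on the log2 scale, had a Pearson r of 0.49 (exact permutation p = 0.179) and a Spearman rho of 0.72 (exact permutation p = 0.0369). Without mice 4 and 8, which lay farthest from the median *Nfe2l2* difference, r was 0.64 (exact permutation p = 0.118). It was 1 relation, and the linear measure did not pass. The genes whose within-mouse differences lay nearest to those of *Ggt5*, out of 11809 genes whose mean log2 CPM was 2 or more, were *Tmem158*, *Pthlh* and *Igfn1*, with mean absolute differences of 0.61, 0.64 and 0.68 on the log2 scale over 9 mice.

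**Figure D2:**
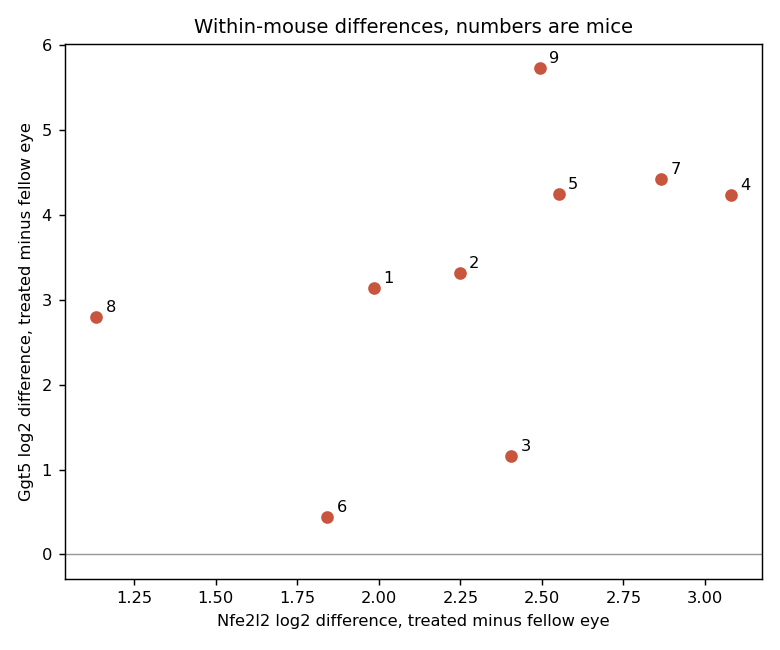
Within-mouse log2 difference (treated minus fellow eye) of *Ggt5* on the y axis against that of *Nfe2l2* on the x axis. Each point is 1 of 9 mice, numbered, and mice 3 and 6 have the smallest *Ggt5* differences, 1.16 and 0.44.

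The *Ggt5* call was lost when photoreceptor RNA entered the model. With the mean log2 level of the rod and cone markers as a covariate, the log2 fold change of *Ggt5* was 0.99 (SE 0.93, adjusted p = 0.595), and 115 genes were called in place of 806. In that fit *Nfe2l2* was at 1.90 with an adjusted p of 0.0707. The summed cone markers were lower in the treated eye of 8 of 9 mice, and the summed rod markers were higher in 0. By mean log2 level, which the covariate uses, both lists were lower in the treated eye of each mouse. The covariate thus moved with the treatment, and this fit cannot tell the part of photoreceptor RNA from that of the treatment.

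*Ggt1* encodes the classical transpeptidase, the main surface enzyme that opens glutathione. It ranged from 31.8 to 119 CPM in control eyes (median 74.8) and from 66.0 to 156 CPM in Best1-Nrf2 eyes (median 122), so the groups overlapped. The means were 78.1 ± 27.4 and 115 ± 33.9 CPM, and the log2 fold change was 0.58 (SE 0.22, adjusted p = 0.239). The level was higher in the treated eye of 6 of 9 mice. The exact sign-flip test gave p = 0.0391, and this passed 0.05 or missed it according to which mouse was left out. Across the other two, *Ggt7* had 3.39 ± 2.05 CPM in control eyes against 6.93 ± 4.99 CPM with Best1-Nrf2 (log2 fold change 0.90, SE 0.40, adjusted p = 0.354), higher in 6 of 9 mice. Its exact sign-flip p was 0.0859, and 0.0469 without mouse 9. Its treated values spread from 1.20 to 16.8 CPM, and 5.2% of its 31-base words recur in another gene, *Acss2*, which overlaps it on the opposite strand. *Ggt6* had 2.75 ± 1.28 CPM in control eyes against 2.57 ± 1.26 CPM with Best1-Nrf2 (log2 fold change -0.13, SE 0.48, adjusted p = 0.961). For *Ggt6* and *Ggt7* an activity on glutathione is less settled than for *Ggt1* and *Ggt5*.

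Per length of exon, *Ggt1* was the most abundant of the 4 transpeptidase genes in both groups. Length here and below is that of all annotated exons of a gene merged, such as 5922 bases for *Ggt5* and 7745 for *Ggct*. It can exceed the length of the transcript expressed and so lower the value. In control eyes it made up 88.3% ± 4.30 of their summed CPM per kilobase, and *Ggt5* made up 1.50% ± 0.82 (SD, n = 9). In Best1-Nrf2 eyes the shares were 81.6% ± 5.62 for *Ggt1* and 8.97% ± 4.12 for *Ggt5*, whose share ran from 1.65% in 1 eye to 13.4% in another. *Ggt6* and *Ggt7* held 6.11% and 4.09% in control eyes and 3.69% and 5.70% in Best1-Nrf2 eyes. The sum of the 4 was 25.8 ± 8.55 CPM per kilobase in control and 41.0 ± 11.2 CPM per kilobase in Best1-Nrf2 eyes. The rise of *Ggt5* therefore left *Ggt1* as the bulk of the family's transcripts in each of the 18 eyes. These shares describe RNA, not enzyme.

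**Figure D3:**
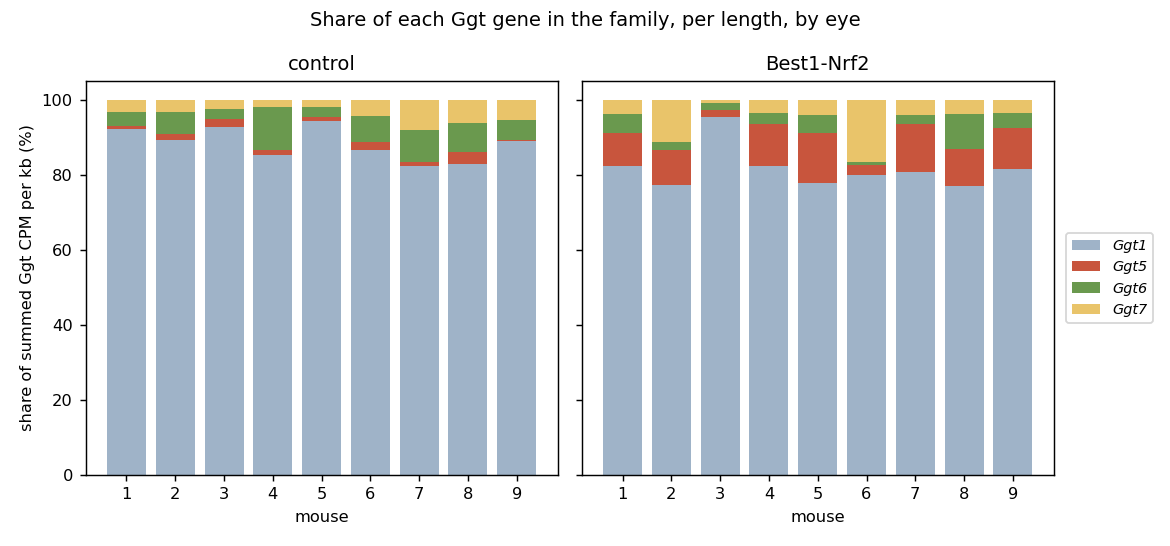
Share (%, linear from 0) of each of the 4 *Ggt* genes in their summed CPM per kilobase of exon, as stacked bars, 1 bar for each of the 9 eyes of a group. The mean share of *Ggt5* is 1.50% in control eyes and 8.97% in Best1-Nrf2 eyes, and its smallest treated share is 1.65%.

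The 2 surface peptidases that act after the transpeptidases were low in both groups and neither was called. *Anpep*, aminopeptidase N, ranged from 1.00 to 8.95 CPM in control eyes and from 0.593 to 13.4 CPM in Best1-Nrf2 eyes, with means of 4.40 ± 2.59 and 5.05 ± 3.78 CPM. Its log2 fold change was 0.02 (SE 0.50, adjusted p = 0.995), with 4 mice higher and 5 lower. *Dpep1*, a membrane dipeptidase that splits cysteinylglycine and leukotriene D4, went from 1.03 ± 0.57 to 1.72 ± 1.10 CPM (log2 fold change 0.74, SE 0.38, adjusted p = 0.468), higher in 6 of 9 mice, with an exact sign-flip p of 0.0703. Without mouse 2 the exact sign-flip p for *Dpep1* was 0.0312.

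The ChaC enzymes degrade glutathione in the cytosol, *Chac1* as a gene that stress induces and *Chac2* as its constitutive relative. *Chac2* ranged from 16.7 to 45.3 CPM in control eyes (median 25.6) and from 12.7 to 28.9 CPM in Best1-Nrf2 eyes (median 13.7). Those ranges overlapped, although 8 of 9 mice had the lower value in the treated eye, with mouse 6 the exception. The log2 fold change was -0.68 (SE 0.23, unadjusted p = 0.011, adjusted p = 0.159), and the exact sign-flip test gave p = 0.0195 unadjusted. *Chac2* passed the threshold in 2 alternatives, at -0.83 with an adjusted p of 0.0281 without mouse 6 and at -0.81 with an adjusted p of 0.0099 in limma voom with sample weights. With the photoreceptor covariate it turned to 0.53 with an adjusted p of 0.474, and over the alternatives its adjusted p ran from 0.0099 to 0.474.

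*Chac1* ranged from 2.94 to 30.4 CPM in control eyes (median 11.7) and from 2.16 to 29.9 CPM in Best1-Nrf2 eyes (median 6.66). The highest value of both groups came from the 2 eyes of mouse 8. The means were 12.9 ± 8.38 and 8.92 ± 8.60 CPM, and the log2 fold change of -0.74 did not pass (SE 0.44, adjusted p = 0.563), with 7 of 9 mice lower and an exact sign-flip p of 0.176. With the photoreceptor covariate the value was -2.98 with an adjusted p of 0.0743, and without mouse 9 the exact sign-flip p was 0.0234. *Chac1* is known as a target of ATF4 and CHOP (*Ddit3*), so the sequence upstream of its start is given as far as the first annotated exon base, with matches to TGACGCAA and to TGATGCAA (on either strand, here read as TTGCATCA) in capitals. It lies on the plus strand at chr2:119350992-119351228 of GRCm38.p6 and comes from RefSeq.

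*Chac1*: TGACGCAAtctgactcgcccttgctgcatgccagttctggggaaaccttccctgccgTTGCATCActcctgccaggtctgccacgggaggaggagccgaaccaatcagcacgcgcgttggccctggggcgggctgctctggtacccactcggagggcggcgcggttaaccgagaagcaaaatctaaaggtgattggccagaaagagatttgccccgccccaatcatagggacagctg

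TGATGCAA, with either strand counted, was present in the 250 bases upstream of 0.918% of 27025 genes, and TGACGCAA in 0.507%. *Chac1* was the member with these matches among the 8 in the promoter table, which has no window for *Ggt5* or *Oplah*. The core of the antioxidant response element, the motif that Nrf2 binds, was searched as TGACNNNGC on both strands. It stood before 11.5% of all genes and before *Ggt1* (2 of its 4 starts) and *Ggct*, neither of which was called, and also before *Gclm*, a glutathione synthesis gene that was. The cystine transporter gene *Slc7a11* was called as well, with no core match but with matches to TGATGCAA at -66 and -47 bases. No core match was found for the called synthesis genes *Gclc* and *Gss*, and whether windows existed for them was not recorded. Such matches are descriptions of letters and not of binding.

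The 12 genes listed as ATF4 and CHOP targets or partners gave 0 called higher and 1 lower in edgeR's test, with 6 at an unadjusted p below 0.05 (*Atf3* and *Sesn2* with a higher level, *Trib3*, *Stc2*, *Psat1* and *Phgdh* with a lower one) and a median log2 fold change of -0.48. *Stc2*, a secreted glycoprotein gene, was the one called (2.04 ± 1.07 CPM in control eyes, 0.541 ± 0.386 CPM with Best1-Nrf2, log2 fold change -2.02, adjusted p = 0.00215). *Ddit3* had 51.4 ± 25.1 CPM in control eyes against 42.1 ± 36.8 CPM with Best1-Nrf2, with an adjusted p of 0.567. Its highest value, 134 CPM, came from the treated eye of mouse 6, where *Chac1* stood at 3.10 CPM, while both eyes of mouse 8, highest in *Chac1*, had 50.7 and 51.1 CPM of *Ddit3*.

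The last steps of the cycle showed no call. *Ggct*, γ-glutamyl cyclotransferase, had 5.30 ± 3.05 CPM in control eyes against 5.24 ± 2.71 CPM with Best1-Nrf2, which is a difference of 0.04 on the log2 scale (SE 0.26, adjusted p = 0.980) with 5 mice higher and 4 lower. *Oplah*, 5-oxoprolinase, was at 38.1 ± 11.8 and 44.6 ± 15.7 CPM, a difference of 0.19 on the log2 scale (SE 0.23, adjusted p = 0.847) with 6 mice higher. Without mouse 2 the difference for *Oplah* was 0.0072, and without mouse 8 it was 0.33. Of the 31-base words of *Oplah*, 10.5% recur in *Exosc4* and *Smpd5*, which overlap it on the opposite strand, and the strand setting of the counting is not given in the sources used here.

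Ordered by CPM per kilobase in control eyes, *Ggt1* (22.9) and *Chac2* (21.1) led, followed by *Chac1* (7.86) and *Oplah* (6.52), and then by *Ggt6* (1.51), *Anpep* (1.06), *Ggt7* (1.04), *Ggct* (0.685), *Dpep1* (0.414) and *Ggt5* (0.331). *Ggt1* exceeded *Chac2* in 6 of 9 control eyes and *Oplah* exceeded *Ggt6* in 9 of 9, so only the latter step was one without exception. *Dpep1* exceeded *Ggt5* in 5 of 9 control eyes, which does not separate them. In Best1-Nrf2 eyes *Ggt1* (33.6 CPM per kilobase) stood above *Chac2* (13.1) in 9 of 9 eyes, and *Ggt5* moved from the tenth place to the fifth at 3.83, above *Ggt7* in 7 of 9 eyes.

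The genes that build glutathione and supply its cysteine were read from the same fit. Of the 3 synthesis genes 3 rose: *Gclc* and *Gclm*, the catalytic and modifier subunits of glutamate-cysteine ligase, by log2 fold changes of 4.72 and 3.43, and *Gss*, glutathione synthetase, by 2.80. Of the 4 genes for cystine supply and glutathione export 3 rose: *Slc7a11*, the cystine transporter (3.53), and the exporters *Abcc4* (2.95) and *Abcc1* (1.25). The partner of *Slc7a11*, *Slc3a2*, was at 0.40 with an adjusted p of 0.438. Among the breakdown genes only the log2 fold change of *Ggt5*, 3.36, fell in the range of these 6, and no difference between the groups of genes was tested.

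**Figure D4:**
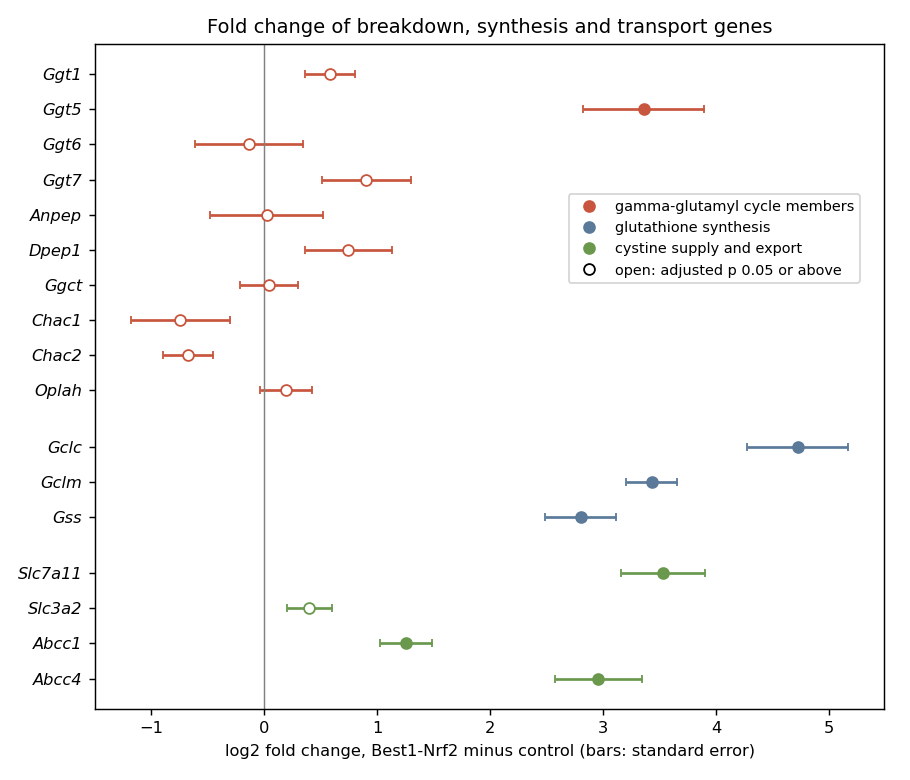
Log2 fold change (x axis, Best1-Nrf2 minus control, bars are standard errors, n = 9 mice) of the 10 breakdown genes, the 3 synthesis genes and the 4 transport genes. Filled points passed an adjusted p of 0.05, which held for 1 of 10 breakdown, 3 of 3 synthesis and 3 of 4 transport genes.

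Of 7 further genes for dipeptides and γ-glutamyl compounds, 6 were tested, with 0 higher and 1 lower in edgeR's test and 1 at an unadjusted p below 0.05. *Dpep2*, a relative of *Dpep1*, fell from 16.9 ± 6.40 to 4.10 ± 1.52 CPM (log2 fold change -1.996, SE 0.22, adjusted p = 2.3e-04) and was lower in 9 of 9 treated eyes. Its value is uncertain, since 41.0% of its 31-base words occur in other genes, among them an overlapping gene of the same name. *Cndp2* and *Lap3*, cytosolic peptidases, and *Ggact*, which acts on γ-glutamyl amines, were at 0.14, 0.13 and -0.09 on the log2 scale and did not pass.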

How the data were processed

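The deposited table held estimated counts (expected counts) per gene, which the authors made from poly(A) RNA amplified with an ultra-low-input kit. The submitters' processing notes name FastQC and Salmon 0.8.1, and the study's methods name STAR on mm10 with Ensembl 91, featureCounts and tximport. The unit was read from the values, which are not whole, and the counts were rounded for testing. No molecular identifiers were used, so PCR copies count as reads. The libraries came from 2 sequencing runs, and which library was in which run is not given in the sources used here.

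Of 47729 genes, 18958 passed filterByExpr. Counts were scaled by TMM and fitted with edgeR 4.0.16 (limma 3.58.1, R 4.3.3) by quasi-likelihood with mouse as a block and Benjamini-Hochberg adjustment over all genes tested. Pairs share an individual number in the labels, whose protocol gives each mouse a treated eye and a contralateral control eye. The deviations of paired eyes from their group means did not correlate in general (median -0.00095, range -0.37 to 0.64), so the pairing rests on the labels. Log2 CPM for within-mouse values had a prior count of 2. No p-value was adjusted over the 10 genes alone. Alternatives were no block, scaling by RLE or the upper quartile, limma voom with sample weights, DESeq2 1.42.0, other filters, a photoreceptor covariate and leaving out each mouse. The fit was tested on simulated data. Libraries of a group came from different mice, so a spread beyond sampling noise was bound to appear (chi-square per degree of freedom of at least 51.7 over 72 pairs).

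The members and lists were chosen with earlier results of these data known. Named genes were the 10 members, *Nfe2l2*, genes of the pathway lists, with values for those past the threshold, and the 3 genes nearest in pattern to a called member. *Slc3a2*, *Ddit3*, *Atf3*, *Sesn2*, *Trib3*, *Psat1*, *Phgdh*, *Ttr*, *Best1*, *Tyr*, *Cndp2*, *Lap3* and *Ggact* were named beyond it, after their values were seen. Among the other cell type lists, rod markers gave 1 of 6 tested lower, fibroblast markers 1 of 9 higher and pericyte markers 1 of 7 lower. Endothelial, Müller glia, melanocyte and red blood cell markers gave 0 of 8, 0 of 7, 0 of 4 and 0 of 5 in edgeR's test, with 0, 1, 0 and 0 at an unadjusted p below 0.05. Positions come from GENCODE mouse release 21 on GRCm38 and promoter windows from RefSeq on GRCm38.p6.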

Additional observations from a re-analysis of the deposited data

Results flagged for a closer look

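In all, 3 values lay far from the rest of their group by Dixon's test at the 95% level, among 22 groups screened, where chance alone gives about 1.1. *Ggt5* in control replicate 9 was at -1.16 log2 CPM, from 19 counts, and the next lowest control eye was at 0.84. *Ggt6* in Best1-Nrf2 replicate 6 was at -1.54 log2 CPM, from 10 counts, with the next at 0.87. *Nfe2l2* in control replicate 8 was at 7.06 log2 CPM, with the next highest control eye at 6.60.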

How the results depend on the processing

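Without the replicate block, that is without pairing the eyes of a mouse, 742 genes were called in place of 806, and 647 were shared. Genes called numbered 1478 in DESeq2, 1426 in limma voom, 115 with the photoreceptor covariate and 540 to 1046 with 1 mouse left out. Breakdown genes called numbered 1, but 2 in limma voom, 0 with the photoreceptor covariate (edgeR) and 1 to 2 with 1 mouse left out. Breakdown genes with an unadjusted exact sign-flip p below 0.05 numbered 3 of the 10, beside 14% of all genes tested. They numbered 2 to 5 with 1 mouse left out, for which the share over all genes was not computed. The r of *Ggt5* with *Nfe2l2* stayed at 0.42 to 0.62 with 1 mouse left out. Signs turned for *Ggct*, *Anpep*, *Ggt6*, *Chac2* and *Oplah*. *Ggct* was at -0.016 without the block, -0.0054 under upper-quartile scaling (-0.0011 within mice), -0.095 in limma voom, and -0.12 and -0.0043 without mice 6 and 8 (-0.12 and -0.0042 within mice). *Anpep* was at -0.031 under upper-quartile scaling (-0.0082 within mice), -0.057 in limma voom, -1.38 with the covariate, and -0.27 to 0.28 with 1 mouse left out (-0.26 to 0.29 within mice), negative at -0.17, -0.27, -0.028 and -0.066 without mice 1, 2, 3 and 8 (-0.19, -0.26, -0.031 and -0.032 within mice). *Ggt6* was at 0.18 without mouse 6 (0.20 within mice), and ran from -0.35 to 0.18 (-0.39 to 0.20 within mice) with 1 mouse left out. With the covariate *Chac2* was at 0.53, *Oplah* at -0.23, *Chac1* at -2.98, *Dpep1* at 2.02, *Ggt7* at 1.81, *Ggct* at 0.87 and *Ggt6* at -1.58, none of them called (adjusted p from 0.0743 to 0.857). The causes were not tested. *Dpep1* did not enter the fit that required 10 counts in every library. The smallest counts in a library were those of *Dpep1* (3), *Ggt6* (10) and *Ggt5* in control eyes (19).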
